A study of Mus musculus with 6 samples.

Results

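Mouse spermatogonial stem cells grown with lovastatin in place of the growth factor GDNF are compared here with the same cells grown with GDNF. The comparison sets 2 RNA libraries of the lovastatin group (LOVA A and LOVA B) against 2 of the GDNF group (PTC A and PTC B), out of 6 libraries in the series. PTC cells received 10 ng/mL recombinant rat GDNF and no lovastatin, and LOVA cells received 5 uM lovastatin and no GDNF. All cells came from a mouse spermatogonial stem cell line, lay on mouse embryonic fibroblast feeders that mitomycin C had stopped from dividing, and had 10 ng/mL EGF, 10 ng/mL FGF2 and LIF in the medium. They were collected on day 18. The media differ in GDNF and in lovastatin at once, so what each of these contributes to a difference cannot be told apart in this comparison. The remaining 2 libraries, grown without GDNF and without lovastatin, entered only the count filter, the scaling and the estimate of the spread. Nothing in the labels ties the A and B libraries to separate cultures, and p-values therefore measure only the spread between these libraries, which may be technical. Of 31384 genes in the table, 16121 passed the filter on low counts, and all of them were compared.

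Spermatogonial stem cells renew themselves or begin the differentiation that leads to sperm. GDNF, made in the testis by somatic cells, binds the co-receptor Gfra1 on the stem cell and signals through the receptor tyrosine kinase Ret, and in culture it sustains self-renewal through transcription factors such as Etv5, Bcl6b, Lhx1 and Pou3f1. Lovastatin is a statin: it blocks the making of mevalonate, from which cells build both cholesterol and the isoprenoid tails that anchor small GTPases to membranes. When a cell is short of sterol, the transcription factor SREBP-2 (gene Srebf2) is carried by Scap to the Golgi, is cut free there and raises transcription of the cholesterol synthesis enzymes. Oxysterols act the other way, through the nuclear receptor LXR, on genes such as Abca1 that export cholesterol.

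The 4 libraries held 12464642 to 22668087 counts, and a count of 3 in a library stood for 0.132 to 0.241 CPM (the depth-scaled count, with library totals adjusted by TMM). The first principal component of these libraries held 89.4% of the variance and ordered them PTC A, PTC B, LOVA A, LOVA B. Feeder fibroblast markers followed the same order: their share of counts was 0.18% in PTC A, 0.745% in PTC B, 1.88% in LOVA A and 3.56% in LOVA B. Pan-germ-cell genes, expressed through much of the germ line, took 0.848%, 0.837%, 0.56% and 0.299% in that order of libraries. LOVA libraries thus held more fibroblast RNA and less germ cell RNA than PTC libraries, with no overlap between the groups, and the spread within LOVA was wide. In RNA from a whole dish, fewer germ cells and less RNA per germ cell cannot be told apart. Macrophage markers took 0.0322% and 0.0272% in PTC and 0.0457% and 0.0548% in LOVA. The markers Prm1 and Prm2 of spermatids and Amh and Fshr of Sertoli cells had no count in these libraries. Other members of both lists had counts: 4 of 13 spermatid genes and 8 of 14 Sertoli cell markers passed the count filter. The Sertoli cell list took 0.0326% and 0.0293% of counts in PTC and 0.0234% and 0.0228% in LOVA. The germ cell genes Ddx4 and Dazl stood between 230.6 and 690.7 CPM in every library. LOVA libraries also held more of some RNAs that are read as signs of RNA quality or library preparation. Gm42418 and AY036118, annotated over a copy of the ribosomal RNA repeat, together took 0.127% and 0.156% of counts in PTC and 2.6% and 3.37% in LOVA. The noncoding RNA Gm26917 (chromosome 17, 39843013 to 39846341) went the other way, from 324.8 and 576.5 CPM in PTC to 94.0 and 60.88 CPM in LOVA. The nuclear noncoding RNA Malat1 took 0.0218% and 0.0127% in PTC and 0.189% and 0.544% in LOVA. Their part in the differences below was not tested.

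**Figure D1:**
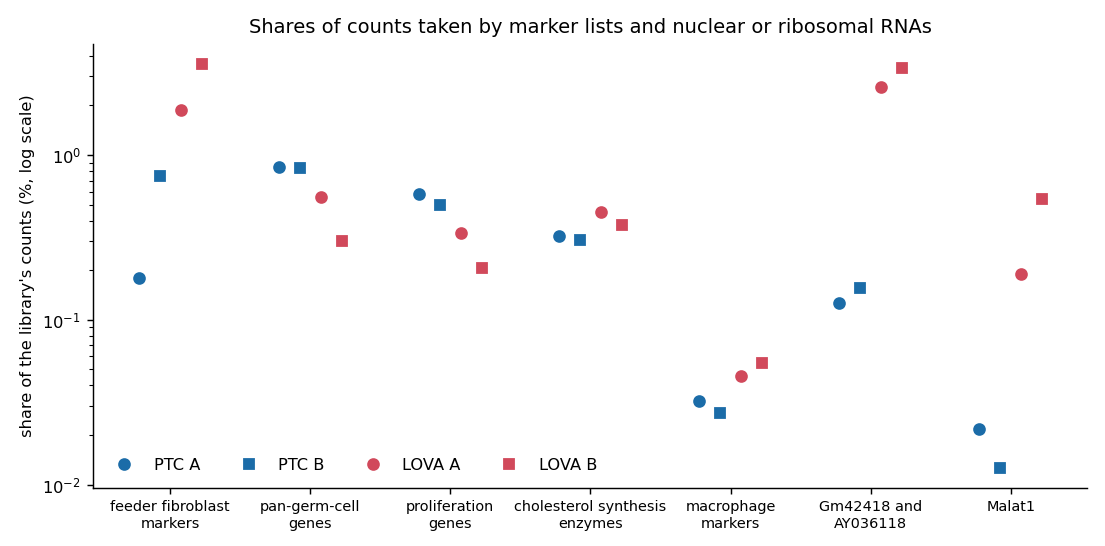
Share of each library's counts (percent, log axis) taken by 5 gene lists and by ribosomal-repeat and Malat1 RNA; blue marks PTC, red marks LOVA, circles A and squares B, 1 point per library. Feeder markers are lowest in PTC A (0.18%) and highest in LOVA B (3.56%), pan-germ-cell genes run from 0.848% in PTC A to 0.299% in LOVA B, and the cholesterol synthesis enzymes are higher in LOVA A (0.451%) than in LOVA B (0.375%).

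A gene was called at an adjusted p under 0.05 from edgeR's quasi-likelihood test over all 16121 genes. By this rule 3192 genes were higher in LOVA, 19.8% of those tested, and 1747 were lower, 10.8%. The counts of calls given below for each list are to be read beside these shares. At least 2-fold changes made up 2739 of the higher and 749 of the lower calls. All 3192 higher and all 1747 lower calls had groups that did not overlap. A gap between the groups of a called gene therefore adds nothing to its call. The median log2 fold change over all genes tested was 0.0034 with TMM scaling. TMM scaling takes the bulk of all RNA in a dish as the yardstick. A second yardstick, the summed counts of 32 pan-germ-cell genes, asks instead what changed relative to germ cell RNA. It moved the median over all genes up by 0.98, to 0.99. With it 4235 genes were called higher (26.3%) and 30 lower (0.186%): all 3192 higher calls were kept, and 1717 of the 1747 lower calls were lost. Directions below are given with both yardsticks where they matter. Calls also changed with single libraries: higher and lower calls were both fewest without PTC A and without LOVA B. They were fewer, too, without either library grown without GDNF and lovastatin, which are not compared, and more numerous without LOVA A. Each such fit also had fewer libraries to estimate the spread. What this contributed was not tested.

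Of the 3192 genes called higher, 2525 (79.1%) followed the feeder order PTC A, PTC B, LOVA A, LOVA B. This order was taken from the summed share of the feeder markers, and all 25 of them tested followed it. Of all genes tested 24.4% did, a share that includes falling genes. It is no like comparator, since all 3192 higher calls had both LOVA libraries above both PTC libraries. Of the genes called higher, 138 (4.32%) were at least as high in LOVA A as in LOVA B, the library with the larger feeder share. For the cholesterol synthesis enzymes this count was 6 of 13 higher calls (46.2%). It was 2 of 5 (40%) for cytosolic ribosomal proteins and 2 of 5 (40%) for nuclear-encoded respiratory chain subunits. These counts describe these libraries and are not a test.

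**Figure D2:**
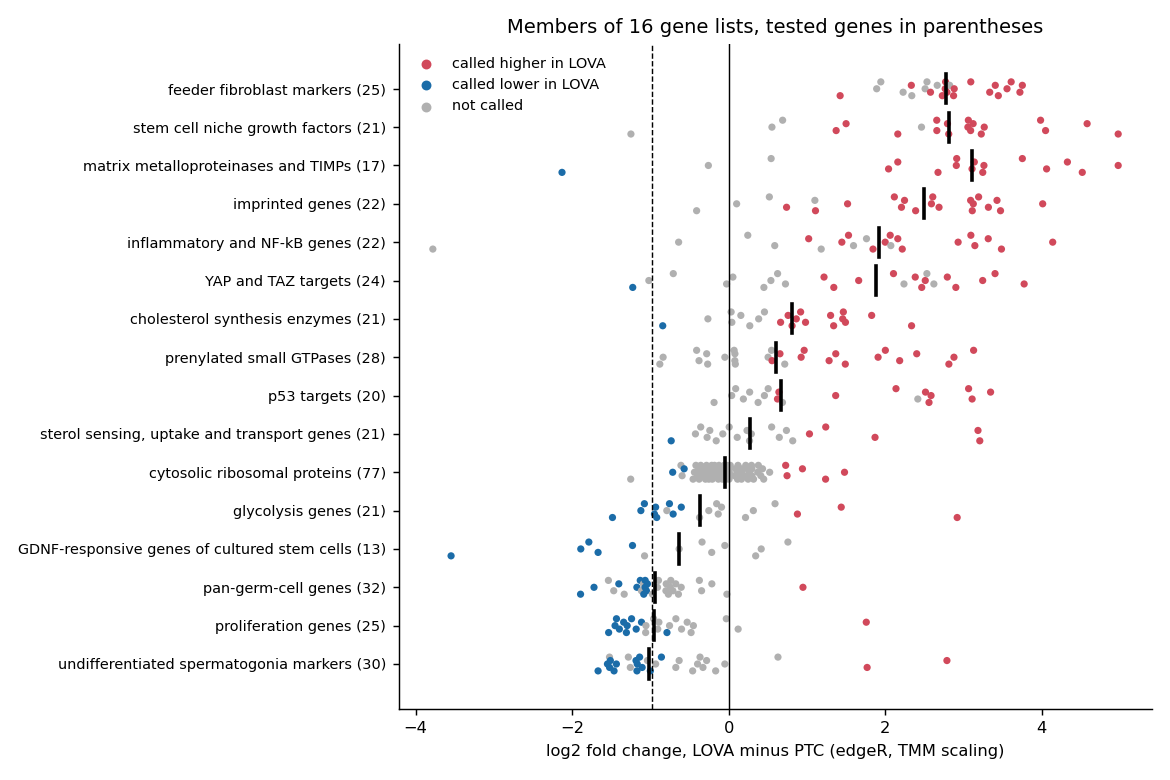
Log2 fold changes, LOVA minus PTC, of the tested members of 16 gene lists (1 point per gene, TMM scaling); red was called higher, blue lower, grey not called, and black bars are list medians. The solid line is the median of all genes (0.0034) and the dashed line, at 0.98 below 0, is where a gene that kept pace with germ cell RNA would lie: medians run from 3.11 for matrix metalloproteinases to -1.02 for undifferentiated spermatogonia markers, and the germ line lists lie near the dashed line.

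Enzymes of cholesterol synthesis rose in LOVA. Of 21 enzymes tested, 13 were called higher and 1 lower, with a median log2 fold change of 0.81, beside 0.0034 over all genes. With the germ cell yardstick the median was 1.83, 15 were called higher and all 21 had a positive log2 fold change. Over all genes tested that yardstick gave a median of 0.99 and called 26.3% higher. A positive sign is thus common under it: 76 of 77 cytosolic ribosomal protein genes had one. Genes of cholesterol synthesis are known to be read by SREBP-2 together with the CCAAT-binding factor NF-Y, so the promoters of 4 of them are shown. Each is the 250 bases before the annotated start in RefSeq (build GRCm38.p6), 5′ to 3′ on the gene's own strand. Capitals mark CCAAT, or ATTGG where it lies on the other strand, and in Hmgcs1 also the sterol regulatory element-like CACNCCAC. Hmgcs1, Mvd and Ebp were called higher and Lbr lower:
Hmgcs1 (chr13:119690101-119690350, plus strand): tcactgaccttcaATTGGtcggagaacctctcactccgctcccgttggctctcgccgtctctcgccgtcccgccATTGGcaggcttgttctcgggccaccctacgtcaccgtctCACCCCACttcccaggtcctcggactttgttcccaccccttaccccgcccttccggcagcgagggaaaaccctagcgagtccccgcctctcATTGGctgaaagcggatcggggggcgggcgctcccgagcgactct
Mvd (chr8:122443423-122443672, minus strand): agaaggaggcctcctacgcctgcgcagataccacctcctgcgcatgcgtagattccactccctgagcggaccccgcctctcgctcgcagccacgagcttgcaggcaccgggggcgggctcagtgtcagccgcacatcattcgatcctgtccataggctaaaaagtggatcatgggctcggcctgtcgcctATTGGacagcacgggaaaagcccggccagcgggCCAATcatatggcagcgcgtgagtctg
Ebp (chrX:8193513-8193762, minus strand): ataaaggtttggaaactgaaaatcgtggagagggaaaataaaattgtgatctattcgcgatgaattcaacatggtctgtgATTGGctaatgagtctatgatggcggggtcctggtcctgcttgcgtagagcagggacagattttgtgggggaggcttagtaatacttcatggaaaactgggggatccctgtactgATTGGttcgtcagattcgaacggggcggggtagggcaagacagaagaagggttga
Lbr (chr1:181842402-181842651, minus strand): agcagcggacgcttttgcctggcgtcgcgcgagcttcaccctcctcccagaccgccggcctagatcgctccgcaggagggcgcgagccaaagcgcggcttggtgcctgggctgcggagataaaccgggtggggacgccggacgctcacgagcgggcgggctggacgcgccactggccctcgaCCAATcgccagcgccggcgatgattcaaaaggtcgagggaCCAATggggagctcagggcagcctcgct

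The motif CCAAT was searched on both strands in the 250 bases before the start. A gene with several annotated starts was counted by the start with the most matches. CCAAT was present in 15 of the 16 cholesterol enzymes with a window in the table (93.8%), against 40.5% of 12166 tested genes with one. Of the genes that sense, take up or carry sterol, described below, 11 of 15 held it (73.3%). The motif CACNCCAC was present in 2 of the 16 enzymes (12.5%), Acat2 and Hmgcs1, against 6.8% of all and 1 of those 15 genes (6.67%). In Hmgcs1 its first base lies at -136 from the start. Lbr, which was called lower, holds 2 CCAAT motifs as Ebp and Mvd do, so the motif count did not separate the directions. A match in letters is a description and not a binding site.

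Of the early, mevalonate steps described here, Acat2, Hmgcs1, Mvk, Pmvk, Mvd and Idi1 rose and Fdps was not called. Hmgcs1, which makes HMG-CoA, stood at 355 and 363.3 CPM in PTC and rose to 560.1 and 656.3 CPM in LOVA, 1.69-fold higher (log2 fold change 0.76, SE 0.18, edgeR adjusted p = 0.0263). Both LOVA libraries lay above both PTC libraries, but the call was lost without LOVA B (adjusted p = 0.0787), PTC A or PTC B. Mvk, mevalonate kinase, went from 15.6 and 18.7 CPM in PTC to 48.1 and 46.5 CPM in LOVA, 2.76-fold higher (1.47, SE 0.21, edgeR adjusted p = 0.0167). Pmvk, the next kinase, had 6.58 and 5.63 CPM in PTC and 20.3 and 14.0 CPM in LOVA (log2 fold change 1.49). Mvk and Pmvk thus showed their higher level in LOVA A, the LOVA library with the smaller feeder share. Acetoacetyl-CoA thiolase (Acat2, 0.92), the decarboxylase Mvd (0.66) and the isomerase Idi1 (0.98) rose as well. Fdps, which joins isoprene units into farnesyl diphosphate at the branch to isoprenoids, was not called with TMM (0.27, adjusted p = 0.309).

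After squalene, several enzymes that work on lanosterol and its products rose. Fdft1, squalene synthase, was not called (log2 fold change 0.03, adjusted p = 0.913), nor was Sqle, which oxidises squalene, at 177.2 and 168.3 CPM in PTC and 244.3 and 230.2 CPM in LOVA (0.46, edgeR adjusted p = 0.0554). Lss, which closes the ring, rose by 0.86. Msmo1, a demethylase of the sterol ring, went from 106.7 and 95.8 CPM in PTC to 272.7 and 283.7 CPM in LOVA, 2.75-fold higher (1.46, SE 0.20, edgeR adjusted p = 0.0167). Cyp51, the 14-alpha demethylase, had 114 and 104.3 CPM in PTC and 277.2 and 276.3 CPM in LOVA (1.34, SE 0.21), nearly equal within each group. Ebp, the sterol isomerase, had the largest change of the list, from 2.38 and 4.09 CPM to 12.3 and 20.9 CPM, 5.06-fold higher (2.34, SE 0.41, edgeR adjusted p = 0.0171). Sc5d (1.83), Nsdhl (1.30) and Hsd17b7 (0.81) also rose. Dhcr7, a late reductase, was not called (0.16, adjusted p = 0.655). Both sterol 14-reductases went without a rise: Tm7sf2 was not called (0.38) and Lbr, which also anchors chromatin to the nuclear envelope, fell by 0.84 (edgeR adjusted p = 0.0404), a change that was 0.06 with the germ cell yardstick. Cyp51 overlaps Akap9, Fdft1 overlaps Ctsb, Fdps overlaps Gm43738, Lbr overlaps Dnah14, Mvd overlaps Gm20388 and Tm7sf2 overlaps Vps51 in the annotation, and reads in such overlaps cannot be assigned without knowing whether the counting used strand. The median stayed between 0.74 and 0.87 whichever library was left out, but the calls did not: 1 enzyme, Msmo1, was called without PTC A, 5 were called higher without PTC B and 10 without LOVA B.

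**Figure D3:**
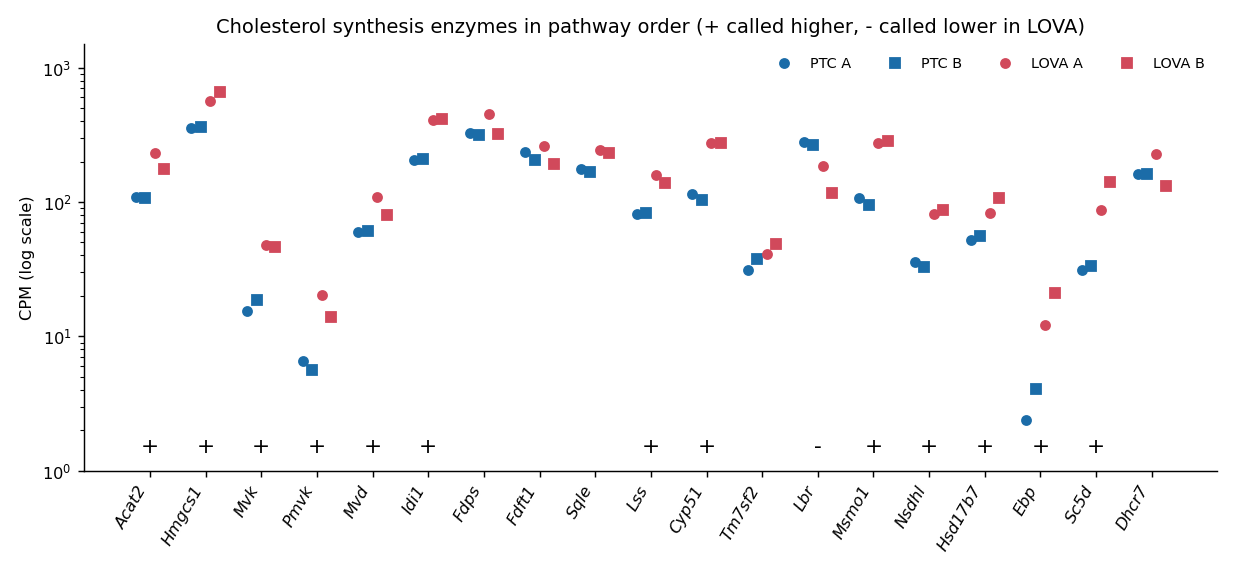
CPM (log axis) of the cholesterol synthesis enzymes described, in pathway order, 1 point per library, blue for PTC and red for LOVA, circles for A and squares for B; + marks genes called higher in LOVA and - the gene called lower. The 13 enzymes called higher carry a +, Fdps and Fdft1 overlap or nearly overlap between the groups, and in Acat2, Mvk, Pmvk, Mvd, Lss and Cyp51 the LOVA A point is at or above the LOVA B point.

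Among 21 genes that sense, take up or carry sterol, 5 were called higher and 1 lower, beside 19.8% and 10.8% of all genes tested (median 0.27 with TMM and 1.26 with the germ cell yardstick). Stard4, which carries cholesterol between membranes, stood at 88.9 and 87.4 CPM in PTC and at 160.3 and 200.5 CPM in LOVA (1.03, SE 0.18). Npc2, which hands cholesterol out of lysosomes, rose from 123.4 and 193.5 CPM to 497.5 and 661.9 CPM (1.87, SE 0.27). Both LOVA libraries lay above both PTC libraries in Stard4 and Npc2, and LOVA B was the higher, as it was for feeder markers. Vldlr, a lipoprotein receptor, rose by 3.19 and followed the feeder order. The transcription factor gene Srebf2 was not called (-0.36, edgeR adjusted p = 0.155). Nor was Insig1, which holds Scap in the endoplasmic reticulum (0.27, edgeR adjusted p = 0.254). With the germ cell yardstick the sign of Srebf2 turned, to 0.58. Tmem97, a sterol-regulated membrane protein, fell by 0.73 with TMM and stood at 0.18 with the germ cell yardstick. Without LOVA B, without PTC A and without PTC B the list held 2, 2 and 3 higher calls, with Stard4 lost without PTC A or PTC B, and Npc2 was called in all 6 fits that left out 1 library.

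Fatty acid and LXR genes were mixed. Of 14 fatty acid synthesis genes 5 were called higher and 2 lower (median 0.18; 1.15 with the germ cell yardstick). The elongase Elovl1 went from 12.04 and 12.9 CPM in PTC to 41.2 and 62.6 CPM in LOVA (2.06, SE 0.25, edgeR adjusted p = 0.0167), and the desaturases Fads1 (1.75) and Scd2 (1.46) rose too. Acaca (-0.70) and Fasn (-0.60), which build the fatty acid chain, fell with TMM but had log2 fold changes of 0.27 and 0.35 with the germ cell yardstick. Elovl1 overlaps the mitotic gene Cdc20, which fell. Of 10 LXR targets 4 were called higher and 2 lower (median 0.21; 1.25). Abca1, the cholesterol exporter, stood at 150.6 and 157 CPM in PTC and at 49.1 and 73.2 CPM in LOVA, 2.52-fold lower (-1.33, SE 0.25, edgeR adjusted p = 0.0181). Its LOVA libraries lay below both PTC libraries, and LOVA B was the higher. With the germ cell yardstick Abca1 stood at -0.27 and was not called, and Abcg1, a second exporter that fell by 0.91 with TMM, stood at 0.03. The higher LXR targets Lpl (3.57), Smpdl3a (2.90) and Pltp (2.57) all followed the feeder order. Without PTC A the calls on Abca1 (adjusted p = 0.0558), Abcg1, Acaca, Fasn, Fads1 and Scd2 were lost, and without LOVA B those on Abcg1, Acaca, Fasn, Scd2, Lpl and Pltp.

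Isoprenoid use was described through 20 enzymes of prenylation and dolichol synthesis and 28 small GTPases that carry a prenyl tail. Of the enzymes 5 were called higher and none lower, beside 19.8% and 10.8% of all genes tested (median 0.15; 1.13 with the germ cell yardstick). They were the Rab escort protein Chm (1.64), the dolichol kinase Dolk (1.26), the prenyl protein protease Zmpste24 (1.19), the geranylgeranyl transferase subunit Rabggtb (0.82) and the farnesyl transferase subunit Fnta (0.68). None of these calls held without PTC A or without LOVA B. Of the GTPases 14 were called higher and none lower (median 0.61; 1.63), and 12 of those 14 followed the feeder order. Without PTC A 4 GTPases were called higher, and without LOVA B 6. Rhob, a short-lived member, did not follow the feeder order: it stood at 23.01 and 32.7 CPM in PTC and at 70.5 and 65.3 CPM in LOVA, 2.44-fold higher (1.28, SE 0.21, edgeR adjusted p = 0.0171). That call was lost without PTC A (1.05, adjusted p = 0.0671). Rhoj (3.13) and Rnd3 (2.88) rose in feeder order, with Rhoj called in 3 and Rnd3 in 1 of the 6 fits that left out 1 library, and Rhod (2.81) rose with PTC B as its lowest library. Rhoa (0.08; -0.02 with total counts) was not called.

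The GDNF receptor Ret was lower in LOVA and its co-receptor was not called. Of 8 GDNF family ligands and receptors tested, 1 was called higher and 1 lower, beside 19.8% and 10.8% of all genes tested. Their median was -0.24, which turned to 0.73 with the germ cell yardstick. Ret (ENSMUSG00000030110, chromosome 6, 118151745 to 118197718, GRCm38) stood at 291.5 and 199.3 CPM in PTC and at 105 and 64.5 CPM in LOVA, 2.89-fold lower (log2 fold change -1.53, SE 0.30, edgeR adjusted p = 0.019). Both LOVA libraries lay below both PTC libraries, as in all 1747 lower calls. With the germ cell yardstick the change was -0.64 (adjusted p = 0.173), and the call was lost without PTC A (-1.24, adjusted p = 0.0722) and without LOVA B (-1.23, adjusted p = 0.0601). Gfra1 stood at 97.1 and 66.1 CPM in PTC and at 60.0 and 63.9 CPM in LOVA, with PTC B close to LOVA (-0.40, adjusted p = 0.211; 0.60 with the germ cell yardstick). Gfra2, the neurturin co-receptor, rose by 2.15 from 0.564 and 1.66 CPM to 4.06 and 6.19 CPM, in feeder order. Gdnf itself was near the detection floor, at 0.188 and 1.19 CPM in PTC and 0.427 and 1.72 CPM in LOVA, higher in the B library of each group.

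Genes known to respond to GDNF in cultured stem cells gave falls in some members and no call in others. Of 13 tested, 5 were called lower and none higher (median -0.63, which turned to 0.44 with the germ cell yardstick). Lhx1, a homeobox factor (ENSMUSG00000018698, chromosome 11, 84518284 to 84525535), stood at 14.6 and 9.08 CPM in PTC and at 1.21 and 0.774 CPM in LOVA, 11.7-fold lower (-3.55, SE 0.46, edgeR adjusted p = 0.0167). Lhx1 was also lower relative to germ cell RNA (-2.67, SE 0.51, adjusted p = 0.0326), and it was called in all 6 fits that left out 1 library. Pou3f1, a POU factor, stood at 78.8 and 69.6 CPM in PTC and at 26.4 and 13.5 CPM in LOVA (-1.89, SE 0.34; -1.03 with the germ cell yardstick, adjusted p = 0.0501). Egr2, an immediate early factor, fell by 1.79, from 59.5 and 36.2 CPM to 11.96 and 15.7 CPM. Nanos2, which represses differentiation by binding RNA, went from 18.5 CPM in both PTC libraries to 7.55 and 4.04 CPM (-1.67, SE 0.38), and Mycn fell by 1.23. In these 4 genes the groups did not overlap, as in all 1747 lower calls. None was called with the germ cell yardstick, and each lost its call without PTC A. Without LOVA B the calls on Nanos2 and Mycn were lost too. Etv5, a central ETS factor of self-renewal, was not called: it had 53.4 and 28.5 CPM in PTC and 36.7 and 42.4 CPM in LOVA, so the LOVA values lay between the PTC values (-0.05, adjusted p = 0.91; 0.96 with the germ cell yardstick). Bcl6b (-1.07, adjusted p = 0.0515), Id4 (-0.63, adjusted p = 0.155; 0.44 with the germ cell yardstick) and the cyclin Ccnd2 (0.76, adjusted p = 0.117) were not called either.

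**Figure D4:**
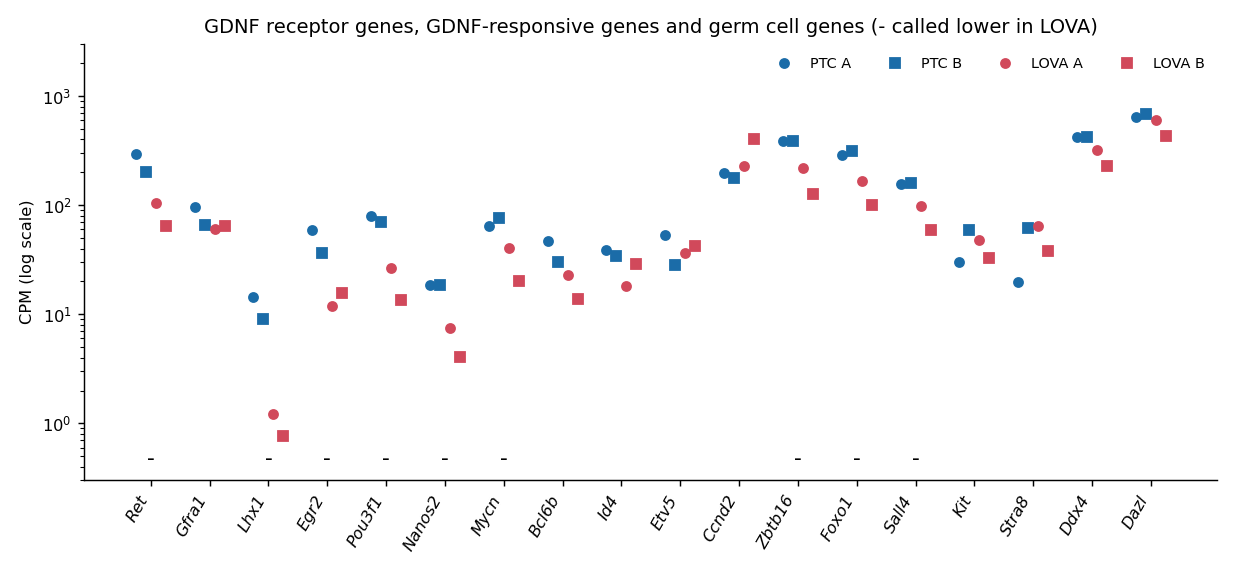
CPM (log axis) of GDNF receptor genes, GDNF-responsive genes, stem cell and other germ cell genes, 1 point per library, blue for PTC and red for LOVA, circles for A and squares for B; - marks genes called lower in LOVA. Lhx1 drops from 14.6 and 9.08 CPM to 1.21 and 0.774 CPM, whereas Etv5, Kit and Stra8 overlap between the groups.

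Many markers of undifferentiated spermatogonia fell with TMM. Of 30 tested, 13 were called lower and 2 higher, with a median of -1.02, beside -0.94 for the 32 pan-germ-cell genes. With the germ cell yardstick, which is made from the pan-germ-cell genes themselves, the medians were -0.15 and -0.08, and no member of either list was called lower. Zbtb16 (PLZF), a zinc finger factor needed to keep the stem cell pool, stood at 388.9 and 387.3 CPM in PTC and at 217.6 and 126.8 CPM in LOVA, 2.25-fold lower (-1.17, SE 0.26, edgeR adjusted p = 0.023). Foxo1 (-1.17), Sall4 (-1.001) and the integrin Itga6 (-1.14) fell by like amounts, and Ddit4 fell by 1.55. LOVA B was the lowest library in each, as it was for pan-germ-cell genes. Uchl1 was not called (-1.04, adjusted p = 0.0914). The 2 higher members, Thy1 (2.79) and Itgb1 (1.77), are surface proteins. Thy1 is also in the feeder marker list, and both followed the feeder order, whose part in these rises was not tested. Without PTC A 2 members were called lower, without PTC B 3 and without LOVA B 3, among them Ddit4 in each case.

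No marker of differentiation or meiosis was called higher with TMM. Of 12 markers of differentiating spermatogonia 3 were called lower and none higher (median -0.95; -0.06 with the germ cell yardstick). Those were Dnmt3b (-1.46), Dmrt1 (-1.18) and Nxf2 (-1.01), and all 3 calls were lost without PTC A, without PTC B and without LOVA B, while 7 members were called lower without LOVA A. Kit, the receptor that marks the onset of differentiation, had 30.2 and 59.6 CPM in PTC and 48.3 and 32.6 CPM in LOVA (-0.15, adjusted p = 0.759; 0.77 with the germ cell yardstick). Stra8, which answers to retinoic acid, had 19.9 and 61.8 CPM in PTC and 64.0 and 38.3 CPM in LOVA (0.32, adjusted p = 0.681). Both genes overlapped between groups, with PTC A the lowest library and PTC B at or near the highest. Of 24 meiotic prophase genes none was called (median -0.46; 0.44 with the germ cell yardstick, where 3 were called higher). Stag3, the meiotic cohesin, stood at 510.3 and 482.8 CPM in PTC and 344.2 and 162.4 CPM in LOVA (-0.97, adjusted p = 0.0849).

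Within the pan-germ-cell genes 10 were called lower and 1 higher. Tdrd9 (-1.89), Dppa4 (-1.72) and the Piwi protein Piwil2 (-1.17), which act in transposon control or germ cell chromatin, fell, while Dazl (-0.37, adjusted p = 0.329; 0.56 with the germ cell yardstick) and Ddx4 (-0.61, adjusted p = 0.0775; 0.32) were not called. Tex15, which guides DNA methylation of transposons, went the other way: it stood at 106.8 and 92.7 CPM in PTC and at 196.2 and 189.1 CPM in LOVA (0.95, SE 0.21, edgeR adjusted p = 0.0227). Its LOVA libraries lay above both PTC libraries under either yardstick (1.93, adjusted p = 0.0326). The calls of this list were lost without PTC A, without PTC B and without LOVA B, where none of the 32 was called, and rose to 26 lower without LOVA A.

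Some pluripotency factors and DNA methylation enzymes fell with TMM. Of 14 pluripotency factors 4 were called lower and 2 higher (median -0.45; 0.39 with the germ cell yardstick): Sox2 (-3.12), Pou5f1 (-1.64), Fbxo15 (-1.61) and Tfcp2l1 (-1.44) fell, and Tbx3 (1.71) and Klf4 (1.51) rose in feeder order. Sox2 stood at 6.58 and 4.26 CPM in PTC and at 0.783 and 0.430 CPM in LOVA, and its change relative to germ cell RNA was -2.26 (adjusted p = 0.0547). Of 9 DNA methylation enzymes 4 were called lower, among them Dnmt3b and the maintenance enzyme Dnmt1 (-1.09), and 1 higher, Tet2 (3.23) (median -0.76; 0.21 with the germ cell yardstick). No call in these lists, higher or lower, held without PTC A. Without LOVA B the pluripotency list had no call and the methylation list only that on Tet2.

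In all, 30 genes were lower in LOVA than in PTC under both yardsticks. Beside Lhx1 they included the developmental transcription factors Barhl2, Foxi3, Foxo6 and Hoxb8, the last pair chosen after their values were seen, as were Fbl and Gar1 below. Barhl2, a homeobox factor (ENSMUSG00000034384, chromosome 5, 106452523 to 106458166), stood at 28.3 and 19.9 CPM in PTC and at 2.21 and 2.32 CPM in LOVA, 10.6-fold lower (-3.41, SE 0.40, edgeR adjusted p = 0.0167; -2.43 with the germ cell yardstick, adjusted p = 0.0326). Fgd5, an exchange factor for the GTPase Cdc42 (ENSMUSG00000034037, chromosome 6, 91978878 to 92076004), went from 42.5 and 33.1 CPM to 4.34 and 3.18 CPM (-3.32, SE 0.31, and -2.40 with the germ cell yardstick). Hoxb8, a Hox factor, went from 65.8 and 70.2 CPM to 16.6 and 11.4 CPM (-2.27, SE 0.24; -1.36, adjusted p = 0.0358). For all 3 genes the LOVA libraries lay far below both PTC libraries. The guanylate cyclase Gucy2g (-2.96; -2.18 with the germ cell yardstick), Foxo6 (-2.41; -1.55) and Foxi3 (-2.46; -1.62) followed. Alox12e, a lipoxygenase, stood at -2.67 and -1.83. The nucleolar proteins Fbl and Gar1, of the machines that modify ribosomal RNA, belonged here as well: Fbl had 466.1 and 451.8 CPM in PTC and 138.7 and 79.5 CPM in LOVA (-2.07, SE 0.28; -1.19, adjusted p = 0.0358), and Gar1 had 66.2 and 78.7 CPM in PTC and 21.01 and 12.8 CPM in LOVA (-2.10, SE 0.31; -1.20, adjusted p = 0.037). Barhl2, Fgd5, Gucy2g, Hoxb8, Fbl and Gar1 were called in all 6 TMM fits that left out 1 library. Foxi3 lost its call without PTC A, PTC B or LOVA B, Alox12e without PTC A or LOVA B, and Foxo6 without PTC A. Mpzl2 (-2.68), Zic1 (-2.50), Gjb2 (-2.58), Car6 (-2.58) and Sez6 (-2.77) were among the 12 largest falls with TMM, predicted genes, clones and pseudogenes left aside, but were not called with the germ cell yardstick.

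**Figure D5:**
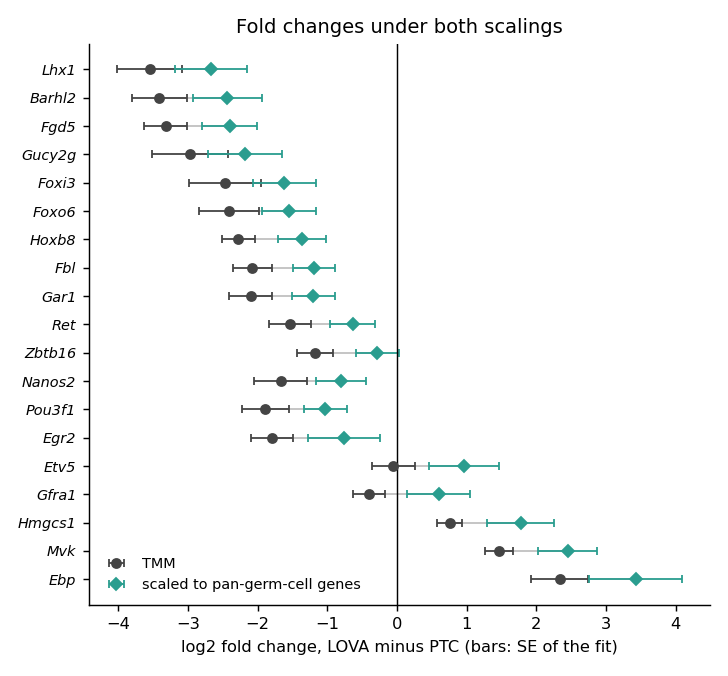
Log2 fold change, LOVA minus PTC, of genes named in the text with TMM scaling (black circles) and scaled to pan-germ-cell genes (green diamonds); bars are standard errors of the fit. The genes from Lhx1 to Gar1 stay below 0 with both yardsticks, from -2.67 for Lhx1 to -1.19 for Fbl, Ret and Zbtb16 approach 0, and Etv5 and Gfra1 turn from negative to positive.

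Many proliferation genes fell with TMM. Of 25 tested, 11 were called lower and 1 higher (median -0.96; -0.08 with the germ cell yardstick), and 21 followed the reverse of the feeder order. The mitotic regulator Cdc20 stood at 248.3 and 259.1 CPM in PTC and at 112.5 and 62.6 CPM in LOVA (-1.53, SE 0.34, edgeR adjusted p = 0.0235), and the kinase Aurkb fell by 1.45. Both were lowest in LOVA B, the library with the smallest germ cell share. Mki67 was not called (-0.03, adjusted p = 0.951; 0.93 with the germ cell yardstick). The higher member, cyclin Ccnd1, rose by 1.76 in feeder order. Without PTC A and without LOVA B no proliferation gene was called.

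Glycolysis genes fell with TMM in 9 of 21 members and rose in 3 (median -0.37, which turned to 0.59 with the germ cell yardstick, where none was lower). Slc2a3, a glucose transporter, went from 165.1 and 125 CPM in PTC to 63.6 and 40.0 CPM in LOVA (-1.49, SE 0.29, edgeR adjusted p = 0.0185). Pgk1 went from 94.5 and 113.8 CPM to 214 and 350.8 CPM (1.44, SE 0.27), and Eno2 rose by 2.92. The 2 opposite movers Pgk1 and Slc2a3 each kept the groups apart, Pgk1 losing its call without PTC A, and Slc2a3 without PTC A or LOVA B. Of the 9 lower calls none was left without PTC A, and 4 genes were called lower without LOVA B. Of 77 cytosolic ribosomal protein genes 5 were called higher, led by Rps4x (1.48), and 2 lower (median -0.05; 0.91 with the germ cell yardstick). Of 76 respiratory chain subunits 5 were called higher and 2 lower (median 0.04, -0.06 with total counts and 1.01 with the germ cell yardstick). Over all genes tested 19.8% were called higher and 10.8% lower.

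Genes of the fibroblast matrix and growth factors made outside the germ line rose in LOVA, as the feeder share did. All 25 feeder markers had positive log2 fold changes and 17 were called (median 2.77). Decorin (Dcn) stood at 42.2 and 179.1 CPM in PTC and at 953.8 and 1972 CPM in LOVA (3.72, SE 0.75, edgeR adjusted p = 0.0214), in the order of the feeder share. Of 17 matrix metalloproteinases and their inhibitors 14 were called higher and 1 lower (median 3.11), among them Mmp13 (4.52), Mmp3 (4.06) and Mmp2 (3.75), and of 39 collagen chains 13 higher and 1 lower (median 2.03). Of 21 growth factors made by niche or stromal cells 17 were called higher and none lower (median 2.81). Grem1, a BMP antagonist (ENSMUSG00000074934, chromosome 2, 113746164 to 113758646), went from 0.439 and 0.938 CPM to 14.7 and 30.9 CPM, 31.5-fold higher (4.98, SE 0.53, edgeR adjusted p = 0.0167). Hgf (4.58) and Fgf7 (4.05), growth factors of mesenchyme, rose with it. Each of the 17 higher niche factors and 13 of the 14 higher metalloproteinase genes followed the feeder order. Of 22 imprinted genes 18 were called higher and none lower (median 2.49), led by Meg3 (4.01), Zim1 (3.48) and Plagl1 (3.43). Without LOVA B no feeder marker and no collagen was called higher, and 1 metalloproteinase gene, 1 imprinted gene and 6 niche factors were. Without LOVA A the higher calls numbered 3 feeder markers, 6 metalloproteinase genes, 10 collagens, 12 imprinted genes and 14 niche factors, and without PTC A 10, 8, 1, 11 and 8. Without PTC B 24 collagens were called higher. Grem1, Hgf and Fgf7 were called in all 6 fits that left out 1 library.

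Inflammatory genes rose in LOVA. Of 22 inflammatory and NF-kB genes 14 were called higher and none lower (median 1.92; 3.05 with the germ cell yardstick), and each of the 14 followed the feeder order. Lcn2, an iron-binding acute-phase protein, stood at 0.564 and 0.639 CPM in PTC and at 7.76 and 13.9 CPM in LOVA, 17.7-fold higher (4.14, SE 0.45, edgeR adjusted p = 0.0167). Saa3, another acute-phase protein, had 3.70 and 5.63 CPM in PTC and 34.9 and 59.1 CPM in LOVA (3.32, SE 0.33). For both genes LOVA A and LOVA B lay above PTC A and PTC B, in the feeder order. Of 20 chemokines 11 were called higher and none lower (median 1.87): Ccl11 (4.17), Ccl8 (3.57) and Cxcl5 (3.49) led. Of 16 complement components 8 were called higher and none lower (median 1.60), among them C1s1 (3.49) and C1ra (3.29). Of 16 macrophage markers 2 were called higher (median 0.65), beside 19.8% of all genes tested: Adgre1 (1.498) and Lyz2 (1.04, from 198 and 176.9 CPM to 333.1 and 436.5 CPM). Lists for cell types that the dish was not labelled to hold passed the count filter in part: 8 of 14 Sertoli cell markers (1 called higher, 1 lower), 3 of 9 Leydig cell markers, 4 of 13 spermatid genes and 2 of 9 lymphocyte markers (none called), 7 of 10 endothelial markers (1 higher) and 7 of 11 epithelial markers (1 higher, 1 lower). Lcn2, Saa3 and Ccl8 were called in all 6 fits that left out 1 library. Without LOVA B 4 inflammatory genes and 1 chemokine were called higher, and without PTC A 4 and 5.

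Interferon-stimulated genes moved in both directions. Of 21 tested, 9 were called higher and 4 lower (median 1.16; 2.21 with the germ cell yardstick, where 10 were higher and none lower). Ifit2 went from 1.19 and 2.64 CPM to 11.3 and 28.2 CPM (3.33, SE 0.56, edgeR adjusted p = 0.0171), and Ifit1 (4.07) and Ifit3 (3.83) rose with it. Rsad2, an antiviral enzyme, went from 7.46 and 6.09 CPM to 0.855 and 2.41 CPM (-2.07, SE 0.54, edgeR adjusted p = 0.0312). Without PTC A the list had 1 gene called higher and 1 lower, and without LOVA B likewise. Ifit2 was called in all 6 fits that left out 1 library.

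Genes of the p53 response and of cell death were partly higher. Of 20 p53 targets 10 were called higher and none lower (median 0.67; 1.70 with the germ cell yardstick). The death receptor Fas stood at 2.13 and 4.52 CPM in PTC and at 25.6 and 43.3 CPM in LOVA, 10.2-fold higher (3.35, SE 0.47, edgeR adjusted p = 0.0167). Perp (3.11) and the receptor Eda2r (3.07) rose as well, and the cell cycle inhibitor Cdkn1a rose by 2.56. Among 20 pro-apoptotic genes 7 were called higher and 1 lower (median 0.26), with Bak1 at 2.89 and Casp8 at 2.46. Anti-apoptotic genes rose too, in 5 of 11 (median 0.80), among them Bcl2l2 (2.08) and Birc3 (1.53), so members of both classes rose. Of 19 genes of the unfolded protein and integrated stress responses 6 were called higher and none lower (median 0.51), with Ddit3 at 2.02 and Herpud1 at 1.37. Of the 10 higher p53 targets 9 followed the feeder order. Fas, Perp, Eda2r, Bak1 and Bcl2l2 were called in all 6 fits that left out 1 library, while Cdkn1a was not called without LOVA B, Birc3 and Ddit3 were not called without PTC A or LOVA B, Casp8 not without PTC A, and Herpud1 not without either PTC library.

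Genes that report on signalling moved in both directions. Of 24 YAP and TAZ targets 12 were called higher and 1 lower (median 1.88; 2.88 with the germ cell yardstick), led by Rbms3 (3.78), F3 (3.40) and Tgfb2 (3.25), and all 12 followed the feeder order. Of 19 ERK feedback genes and ETS factors 5 were called higher and 4 lower, beside 19.8% and 10.8% of all genes tested (median 0.36). Dusp5, a phosphatase induced by ERK, stood at 102 and 91.6 CPM in PTC and at 37.2 and 35.7 CPM in LOVA (-1.41, SE 0.18, edgeR adjusted p = 0.0167), level within each group. Egr1 went from 569.8 and 629 CPM to 301.6 and 199.9 CPM (-1.26, SE 0.24). With the germ cell yardstick Dusp5 stood at -0.43 and Egr1 at -0.34, and neither was called. Dusp5 was called in all 6 TMM fits that left out 1 library, and Egr1 was not called without PTC A. Etv1 (3.16), Spred3 (1.95) and Spry1 (1.82) rose. Of 12 receptors for growth factors 5 were called higher and 1 lower, led by Egfr (3.47), Pdgfrb (3.10) and Pdgfra (2.77) in feeder order. Without LOVA B 1 YAP target, no ERK gene and no receptor was called higher.

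The 12 largest rises, again with predicted genes, clones and pseudogenes left aside, included surface proteins, enzymes and noncoding RNAs. AY036118, over the ribosomal RNA repeat, was left aside by this rule and rose by 5.12. Mme, a cell surface peptidase (ENSMUSG00000027820, chromosome 3, 63241537 to 63386030), went from 1.69 and 2.77 CPM to 47.3 and 103.4 CPM, 33.1-fold higher (5.05, SE 0.49, edgeR adjusted p = 0.0167). Dnm3os, a noncoding RNA of mesenchyme, went from 1.32 and 5.63 CPM to 56.8 and 179.6 CPM (5.04, SE 0.87), and Malat1 from 204.9 and 123.1 CPM to 1837 and 5828 CPM (4.55, SE 0.68). Malat1 did not follow the feeder order in PTC, since PTC A was the higher of the pair. Adh7 (4.89), Aldh1a7 (4.80) and Lpar4 (4.66) were among the 12 largest as well. Pakap (6.64), Pcdhga3 (4.61), Kng1 (5.04) and Plac9b (4.91) also were, but they overlap other genes or have near-identical copies, so their counts are uncertain. Dnm3os overlaps Dnm3 in the annotation, and reads there cannot be assigned without knowing whether the counting used strand. Without LOVA B the calls on Dnm3os (adjusted p = 0.124) and Malat1 (adjusted p = 0.0775) were lost, and Mme kept its call in all 6 fits.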

How the data were processed

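The authors deposited 1 table of raw gene counts for the 6 libraries of the series. Per the submitters' processing notes, Trimmomatic, Bowtie2, RSEM and DESeq2 were used and the build was mm10; their versions, the counting step and its use of strand are not given in the sources used here, and RSEM gives estimates, which may have been rounded to the whole numbers deposited. All 4 LOVA and PTC columns and both columns without GDNF or lovastatin were read by their names, and 0 per-sample columns were unused. Genes were filtered with filterByExpr on all 6 libraries, scaled by TMM and tested with edgeR 4.0.16 (quasi-likelihood F test, robust, R 4.3.3), with 1 coefficient per group and 3 residual degrees of freedom. P-values were adjusted by Benjamini-Hochberg over all genes tested, and a call needs an adjusted p under 0.05. The procedure was tested on simulated data. A log2 fold change is LOVA minus PTC, an SE is that of the fit, and the floor of 3 counts covers counting error only.

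Members and gene lists were chosen with earlier results of these data known. Genes were named by rule: every tested member of the sterol, GDNF and germ cell lists could be named, then up to 3 of the largest calls of each other list (or the 2 most abundant members where none was called) and the 12 largest called changes in each direction, both with a mean of at least 5 CPM. The latter needed groups that did not overlap and left out predicted genes, clones and pseudogenes. Some members counted in the lists are not reported here by name. Other genes named, the library orders and the motifs were chosen after their values were seen. Alternatives were size factors of DESeq2, the DESeq2 1.42.0 Wald test, limma-voom (limma 3.58.1), no count filter, 4 libraries only, scaling to pan-germ-cell genes or to total counts, a block by column letter, and leaving out each library. Promoter sequences come from RefSeq (GRCm38.p6), and other coordinates from the GENCODE annotation of GRCm38. Named genes that also overlap a protein-coding gene there are Acaca, Bak1, Bcl2l2, Ccnd1, Ddit3, Dolk, Fbxo15, Fgf7, Pltp, Rhoa, Spred3, Sult1a1, Tdrd9 and Zic1. Reads in those overlaps cannot be assigned either. Replicates within a group differed by more than sampling noise.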

Additional observations from a re-analysis of the deposited data

How the results depend on the processing

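The number of genes called lower depended on the processing more than the number called higher. Against 1747 lower calls, 2703 were found with no filter on low counts, 881 with only the 4 LOVA and PTC libraries, 30 with scaling to pan-germ-cell genes and 3466 with a replicate block by column letter. The letters are not tied to the replicate numbers of the labels, and the deviations of PTC A and LOVA A from their group means correlated at 0.387 across genes, which are not independent replicates. Leaving out 1 library gave 57 to 3174 lower and 628 to 3580 higher calls. Of 149 called genes named in the text, 35 were called whichever library was left out. Calls lost numbered 89 without PTC A, 86 without LOVA B, 46 without PTC B, 33 with germ cell scaling and 0 with the DESeq2 Wald test or the block. The 33 count only genes that kept their sign. Abcg1, Acaca, Fasn, Lbr and Tmem97, whose sign turned, were not called with germ cell scaling either. Calls were also lost without either library grown without GDNF and lovastatin, although these are not compared. The cause of these losses was not tested.

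With germ cell scaling the log2 fold change turned positive for Abcg1 (0.032), Acaca (0.27), Dazl (0.56), Ddx4 (0.32), Etv5 (0.96), Fasn (0.35), Gfra1 (0.60), Id4 (0.44), Kit (0.77), Lbr (0.063), Mki67 (0.93), Srebf2 (0.58) and Tmem97 (0.18). With limma-voom it turned for Etv5 (0.046) and Mki67 (0.062), with the replicate block for Mki67 (0.041), with no filter for Fdft1 (-0.007706), and with total counts for Fdft1 (-0.059) and Rhoa (-0.020). Leaving out 1 library gave ranges that crossed 0 for Dhcr7 (-0.30 to 0.50), Etv5 (-0.44 to 0.47), Fdft1 (-0.22 to 0.24), Gdnf (-0.74 to 2.43), Kit (-0.56 to 0.42), Mki67 (-0.43 to 0.50), Rhoa (-0.0025 to 0.16) and Stra8 (-0.27 to 1.355). None of the genes whose range crossed 0 was called in the main TMM fit. Of the genes that turned with germ cell scaling, Abcg1, Acaca, Fasn, Lbr and Tmem97 were called lower in it.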

Other observations

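Outside the cholesterol synthesis list, some genes called higher in LOVA were also at least as high in LOVA A as in LOVA B, as 138 of 3192 higher calls were. They were chosen after their values were seen, and are given as values. Mmab, a vitamin B12 enzyme whose gene lies next to Mvk on chromosome 5, stood at 21.3 and 21.2 CPM in PTC and at 40.5 and 35.5 CPM in LOVA (log2 fold change 0.84, SE 0.20, edgeR adjusted p = 0.0265). Dbi, which binds acyl-CoA, stood at 69.4 and 61.5 CPM in PTC and at 122 and 120.3 CPM in LOVA (0.89, SE 0.17). Pcyt2, an enzyme of phosphatidylethanolamine synthesis, stood at 26.2 and 26.8 CPM in PTC and at 49.4 and 38.7 CPM in LOVA (0.73, SE 0.20). Sec61b and Sec61g, subunits of the channel that passes proteins into the endoplasmic reticulum, had log2 fold changes of 0.57 and 0.68. Sult1a1, a sulfotransferase, stood at 0.753 and 2.60 CPM in PTC and at 13.1 and 12.9 CPM in LOVA (2.91, SE 0.54). In each of these genes the groups did not overlap, as in all 3192 higher calls. The calls on Pcyt2 and Sec61b were lost in each fit that left out 1 library, that on Sec61g in 5 of 6, that on Dbi without PTC A or PTC B, and that on Sult1a1 without LOVA B. The call on Mmab was lost in 5 of 6 fits that left out 1 library, with adjusted p 0.0509 to 0.137, and was kept without LOVA A.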
